A study of Homo sapiens with 4 samples.

Results

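The CLK and SRPK kinases phosphorylate the SR proteins that choose splice sites, and this account covers every cassette exon listed for CLK1, CLK2, CLK3, CLK4, SRPK1 and SRPK2. A skipped-exon event (an upstream exon, a cassette exon and a downstream exon) was taken as a member when its cassette exon had the exact coordinates of a GENCODE release 29 exon of one of these genes on the same strand, or when both its flanking exons did. The rule found 25 events of the 45977 in the comparison, and all 25 were matched by the cassette exon itself. They hold 24 different exons, because 1 SRPK1 exon is listed in 2 events. The study sequenced total RNA of the breast cancer line MDA-LM2, which was derived from human MDA-MB-231 cells by its spread to the lung. Of 4 samples, 2 were transfected by lipofection with the SSE mimetic, an RNA that mimics the structural splicing enhancer under study, and 2 with a scrambled oligo. Lipofection, the cell line and the medium were common to both groups, and it is not stated in the labels if each sample was its own culture. The deposited tables give 1 pooled read set per group, called here the mimetic set and the control set, so there is no spread between samples and no test across samples. Every comparison below is between these sets in 1 cell line, in which a change of RNA per cell and a change in the mix of cells cannot be told apart.

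SRPK1 and SRPK2 act mainly in the cytoplasm, where they phosphorylate the arginine-serine domain of SR proteins and so promote their import. The CLK kinases act in the nucleus, where further phosphorylation releases SR proteins from speckles. The CLK genes are known for regulating their own transcripts: skipping of a coding exon ahead of the kinase domain gives a frameshifted RNA without kinase activity, and CLK1 and CLK4 also keep a nuclear store of transcripts with introns retained around that exon.

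No CLK or SRPK exon was called. Testing needed 10 or more isoform-specific reads per group, meaning reads that match the inclusion isoform alone or the skipping isoform alone. A call needed an authors' Bayes factor (the odds of the data under a difference against no difference) of at least 10, and the percent spliced in (Ψ, here a fraction from 0 to 1) had to differ by at least 0.1. Of the 24 member exons 7 were tested and 17 had too few reads, and 0 of the 7 were called, against 3.99% of all 8228 tested exons (3.1% higher and 0.887% lower in the mimetic set). With 7 exons that share would give less than 1 call, so the count lies near the background. In the authors' deposited table the Bayes factors of the 25 events ran from 0.09 to 1.36, and the differences (mimetic minus control) from -0.27 to 0.34. Both ends had few isoform-specific reads in the mimetic set, 3 for the CLK1 83-nt exon (-0.27) and 1 for the CLK4 41-nt exon (0.34). The difference was above 0 in 12 events and below 0 in 13, and the 95% credible intervals of the groups overlapped in all 25. These signs include 2 exons without an isoform-specific read in either group. Over the 7 tested exons the median difference was -0.02, and over all tested exons it was -0.03 (interquartile range -0.09 to 0.03).

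**Figure D1:**
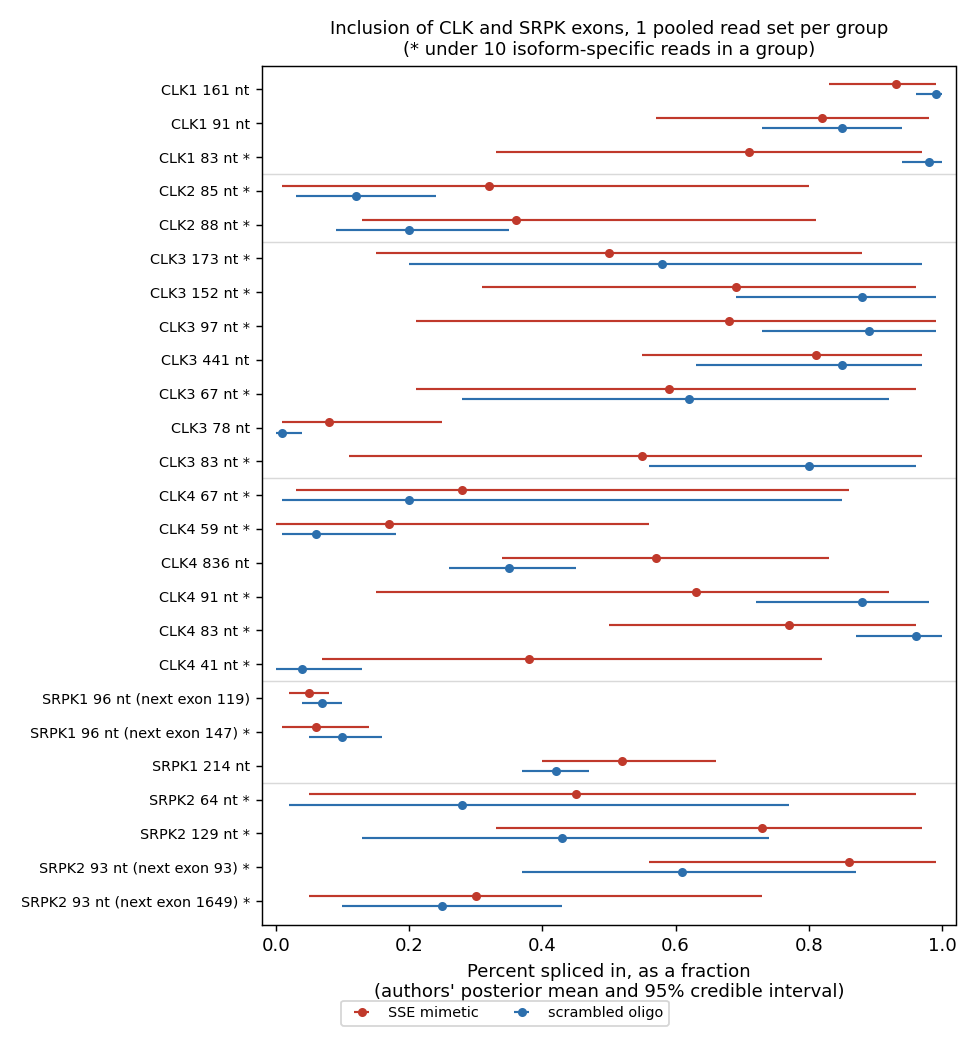
Ψ of the 25 events (x axis, fraction; point, the authors' posterior mean; line, 95% credible interval) in the mimetic set (SSE mimetic) and the control set (scrambled oligo), by gene and in transcript order on the y axis. The lines of the groups overlap in every event, and those of the mimetic set are the longer ones in most.

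The exon ahead of the kinase domain is shown for the 4 CLK genes because it is the cassette exon through which these genes are known to regulate themselves, and because all 4 genes have it in the deposited tables. It is exon 4 of each reference transcript, it is followed in each gene by an exon of 67 nt, and its length of 91 nt in CLK1 and CLK4, 88 nt in CLK2 and 97 nt in CLK3 leaves 1 base beyond whole codons. The sequences are those of GENCODE release 29 transcripts on GRCh38, 5′ to 3′ on the transcript strand, and capitals mark the 40 of 97 alignment columns that are identical in all 4 genes.
CLK1 exon 4, chr2:200860125-200860215, minus strand: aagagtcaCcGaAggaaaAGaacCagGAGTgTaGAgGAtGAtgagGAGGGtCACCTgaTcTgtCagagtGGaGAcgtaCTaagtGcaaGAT
CLK2 exon 4, chr1:155268708-155268795, minus strand: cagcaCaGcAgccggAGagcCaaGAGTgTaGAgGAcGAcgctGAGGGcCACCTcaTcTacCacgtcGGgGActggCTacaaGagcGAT
CLK3 exon 4, chr15:74622120-74622216, plus strand: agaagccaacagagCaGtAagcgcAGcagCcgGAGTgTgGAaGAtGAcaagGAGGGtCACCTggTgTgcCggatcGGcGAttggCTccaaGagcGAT
CLK4 exon 4, chr5:178617344-178617434, minus strand: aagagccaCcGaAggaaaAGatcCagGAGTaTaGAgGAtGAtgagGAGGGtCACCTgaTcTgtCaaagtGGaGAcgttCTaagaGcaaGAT

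The CLK1 and CLK4 exons were identical at 85 of 91 aligned columns (93.4%), and the other 5 pairs at 56.7% to 61.9%. The table does not state how reads that fit more than 1 place were handled, so values of this exon in CLK1 and CLK4 carry that uncertainty. GENCODE release 29 also lists the pseudogenes CLK2P1, CLK3P2 and SRPK2P, and reads shared with them were not examined.

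Joining exon 3 to exon 5 shifts the frame in all 4 genes. The stretches below run from the last 30 bases of exon 3 across the new junction to the first in-frame stop codon, which is in capitals, and are shown because they mark where the skipped form ends.
CLK1 after skipping: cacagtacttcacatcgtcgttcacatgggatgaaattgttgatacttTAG
CLK2 after skipping: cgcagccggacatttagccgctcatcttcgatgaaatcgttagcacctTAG
CLK3 after skipping: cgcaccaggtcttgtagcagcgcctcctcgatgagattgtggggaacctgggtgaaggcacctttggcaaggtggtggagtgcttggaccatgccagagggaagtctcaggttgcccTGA
CLK4 after skipping: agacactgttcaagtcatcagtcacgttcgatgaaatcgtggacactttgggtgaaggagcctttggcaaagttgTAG

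In CLK1 and CLK2 the stop begins at base 19 after the junction and in CLK4 at base 46, all within the 67-nt exon. In CLK3 it begins at base 88, in the exon beyond it. The open reading frame drops from 484 to 136 codons in CLK1, from 499 to 139 in CLK2, from 490 to 152 in CLK3 and from 481 to 143 in CLK4.

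Exon 4 of CLK1, which encodes the best studied of the dual-specificity kinases of SR proteins, was mostly included in both groups. In the mimetic set 10 reads were for inclusion, 0 for skipping and 16 shared by both isoforms, and in the control set 80, 3 and 157. Ψ was 0.82 (0.57 to 0.98) and 0.85 (0.73 to 0.94). Inclusion reads were 100% of isoform-specific reads (exact 95% Clopper-Pearson interval 69.2 to 100) and 96.4% (89.8 to 99.2). Such shares, here and below, are of raw reads. They are not corrected for exon length, which gives inclusion more read positions than skipping. For a read class with a count of 0, the limit given here and below is 3 counts of the total, which for 0 skipping reads of 10 is a share of 30%. It is a one-sided limit and lies a little inside the end of the two-sided exact interval. Intervals and limits cover counting error only, since no molecular identifiers tell copies of 1 molecule apart. A 2-isoform model of the same reads put the difference at -0.0049, with a 95% interval of -0.335 to 0.225, which includes a change of 0.2 in either direction. Fisher's exact test on inclusion and skipping reads, two-sided and with Benjamini-Hochberg adjustment over all tested exons, gave an adjusted p of 1.

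The same exon had fewer reads in the other CLK genes and was not tested there. CLK4, the closest relative of CLK1, had 3 reads for inclusion and 0 for skipping in the mimetic set, and 29 and 1 in the control set, and Ψ was 0.63 (0.15 to 0.92) and 0.88 (0.72 to 0.98). CLK3 had 2 and 0 reads against 25 and 0, with Ψ at 0.68 (0.21 to 0.99) and 0.89 (0.73 to 0.99). In both genes the skipping junction was seen in at most 1 read of a set. The mimetic set had no such read in either gene, so its lower Ψ does not show more skipping. CLK2 differed in the level of Ψ. The 88-nt form had 2 inclusion reads and 1 skipping read in the mimetic set and 8 and 3 in the control set, and Ψ was 0.36 (0.13 to 0.81) and 0.20 (0.09 to 0.35). Inclusion nevertheless made up 66.7% (9.43 to 99.2) and 72.7% (39 to 94) of these isoform-specific reads, without correction for exon length. Ψ was also estimated from reads that fit both isoforms, 14 and 105 of them. The low Ψ therefore does not show that this exon was mostly skipped. A form 3 nt shorter, 85 nt long and ending at the same base, had Ψ of 0.32 (0.01 to 0.80) and 0.12 (0.03 to 0.24). Reads across the upstream junction of one form match neither isoform of the event of the other, so each of these CLK2 values leaves out such reads. Skipping reads and reads across the downstream junction, which the forms share, fit both events, so the 2 values are not independent. The recomputed intervals of the difference reached from -0.152 to 0.613 for the 88-nt form, from -0.66 to 0.182 for CLK4 and from -0.74 to 0.102 for CLK3.

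**Figure D2:**
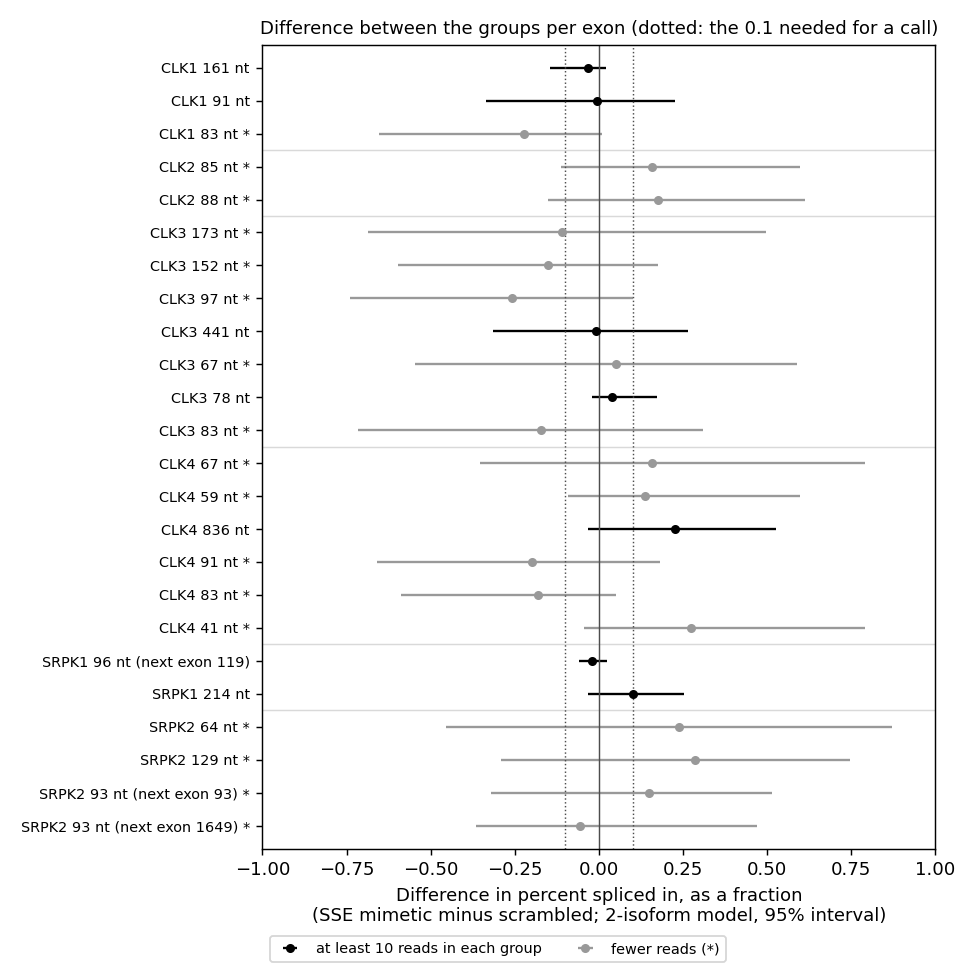
Difference in Ψ between the groups (x axis, mimetic minus control, fraction) recomputed with the 2-isoform model for each of the 24 exons, with 95% intervals as lines and the size needed for a call as dotted lines. All 24 intervals include 0, and the narrowest is that of the SRPK1 96-nt exon, from -0.06 to 0.025.

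The other tested exon of CLK1 is a coding exon of 161 nt, exon 2 of its reference transcript, on chromosome 2 from 200861702 to 200861862. All its isoform-specific reads were inclusion reads, 37 in the mimetic set and 226 in the control set, and Ψ was 0.93 (0.83 to 0.99) and 0.99 (0.96 to 1.0). With no skipping read, the 3-count limit on the skipping share was 8.11% and 1.33%, and the exact intervals of the inclusion share were 90.5 to 100 and 98.4 to 100. The recomputed difference was -0.0338 (95% interval -0.145 to 0.02).

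In CLK3 the tested exons were annotated forms that are not part of the kinase-coding transcripts. An exon of 441 nt on chromosome 15, from 74622120 to 74622560, is found in a retained-intron transcript and spans exon 4, the following intron and the 67-nt exon. It had no skipping read, with 18 inclusion reads in the mimetic set and 55 in the control set, and Ψ was 0.81 (0.55 to 0.97) and 0.85 (0.63 to 0.97). Reads inside exon 4, or across the junction of the 67-nt exon with the next exon, count as inclusion of this form whatever the intron does. Its Ψ is therefore not a level of intron retention. A 78-nt exon from 74626989 to 74627066, which belongs to a transcript annotated for nonsense-mediated decay, was skipped in both groups. It had no inclusion read, with 10 skipping reads in the mimetic set and 55 in the control set. The 3-count limit on the inclusion share was 30% and 5.45%, the exact intervals reached 30.8% and 6.49%, and Ψ was 0.08 (0.01 to 0.25) and 0.01 (0.00 to 0.04). Fisher's exact test could give no p but 1 for either CLK3 exon, since one read class was empty in both groups.

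CLK4 had the largest difference among the 7 tested exons. The 836-nt exon lies on chromosome 5 from 178619838 to 178620673, ahead of exon 3, and is annotated in transcripts subject to nonsense-mediated decay. In the mimetic set 29 reads were for inclusion and 1 for skipping, and in the control set 83 and 19. Ψ was 0.57 (0.34 to 0.83) and 0.35 (0.26 to 0.45), and the intervals overlapped. Inclusion reads made up 96.7% (82.8 to 99.9) and 81.4% (72.4 to 88.4) of isoform-specific reads. An exon of 836 nt has many more read positions for inclusion than for skipping, so these raw shares overstate its inclusion. Fisher's exact test gave p = 0.0437 before adjustment and an adjusted p of 0.838, where 5.51% of all tested exons had an unadjusted p under 0.05 and 1.01% passed after adjustment. It was the 1 member of 7 with an unadjusted p under 0.05, and 0 passed after adjustment. The test could not pass for both CLK3 exons, the CLK1 161-nt exon and the SRPK1 214-nt exon. In each of these, a read class was empty in both groups. The recomputed difference of 0.226 (95% interval -0.0325 to 0.525) went to 0.0175 when the read density of the flanking introns was subtracted from the inclusion reads. A 59-nt form with the same 3′ end had no inclusion read and 1 skipping read in the mimetic set and 1 and 19 in the control set. The short form thus had at most 1 inclusion read in a set.

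SRPK1, a main cytoplasmic kinase of SR proteins, had the 2 exons with the most isoform-specific reads of all members in the mimetic set. A 96-nt exon near the 5′ end of the gene, on chromosome 6 from 35904879 to 35904974, is partly coding and annotated in 2 transcripts. With an exon of 119 nt downstream it had 7 reads for inclusion and 45 for skipping in the mimetic set, and 23 and 95 in the control set. Ψ was 0.05 (0.02 to 0.08) and 0.07 (0.04 to 0.10). The exon was thus mainly skipped in both groups, with inclusion reads at 13.5% (5.59 to 25.8) and 19.5% (12.8 to 27.8) of isoform-specific reads. The recomputed difference was -0.0191, and its interval of -0.06 to 0.025 lies within 0.1 of 0. Of the 24 exons this was the one whose whole interval lay inside the size needed for a call, and Fisher's exact test gave an adjusted p of 1 (0.39 before adjustment). The second event of the same exon has a downstream exon of 147 nt, 28 nt longer, and held 3 inclusion and 0 skipping reads against 14 and 3. Skipping reads were thus mostly joined to the 119-nt form.

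In the second tested SRPK1 exon Ψ and the share of inclusion reads differed. This coding exon of 214 nt, from 35870281 to 35870494, had no skipping read, with 77 inclusion reads in the mimetic set and 324 in the control set. Its Ψ was 0.52 (0.40 to 0.66) and 0.42 (0.37 to 0.47), an estimate that 260 and 1335 shared reads also entered. The upstream exon of the event is 26 nt long and the downstream exon 420 nt, so unspliced shared reads longer than 26 nt can lie in the latter alone. The share of inclusion reads was 100% in both groups (95.3 to 100 and 98.9 to 100). The recomputed difference of 0.101 (95% interval -0.0325 to 0.253) became -0.0236 after subtraction of the intron read density. Among exons of other genes, those closest to this exon in both Ψ values were in ATP5MPL, FAM49B and SEC31A, each at a Euclidean distance of 0.01 over the 2 groups, a likeness that 7 exons reached within 0.015.

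No SRPK2 exon had enough reads for a test. SRPK2, the paralogue of SRPK1 with high expression in brain, had 4 exons with 0 to 5 isoform-specific reads each in the mimetic set and 0 to 17 in the control set. The exon with the most, a coding exon of 93 nt on chromosome 7 from 105126248 to 105126340, had 4 inclusion reads and 0 skipping reads against 14 and 3, with Ψ at 0.86 (0.56 to 0.99) and 0.61 (0.37 to 0.87). The next coding exon, also 93 nt, had no isoform-specific read in the mimetic set and 6 inclusion and 6 skipping reads in the control set. Deposited differences were above 0 for all 4 exons, at 0.05 to 0.30 in the authors' deposited table, and the recomputed intervals all include 0. For the second of the 93-nt exons the recomputed difference was -0.0552, against 0.05 as deposited.

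Of the 24 exons, 14 were coding over their whole length in a protein-coding transcript, 2 were partly coding and 8 were found in transcripts of other types alone. They ranged from 41 to 836 nt. Among the 14 coding exons, 12 had a length that is not a multiple of 3, and the 2 others were the SRPK2 exons of 93 nt. Skipping reads were absent from both groups in 12 of the 24 exons, and in 4509 of the 8228 tested exons of the whole table.

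A second homologous exon is listed in 3 of the genes. CLK1, CLK3 and CLK4 each list exon 10, of 83 nt, between exons of 130 and 80 nt, and it encodes part of the kinase domain. The sequences are shown because the CLK1 exon had few reads in the mimetic set for its number in the control set, and capitals mark the 55 of 83 columns identical in all 3.
CLK1 exon 10, chr2:200855004-200855086, minus strand: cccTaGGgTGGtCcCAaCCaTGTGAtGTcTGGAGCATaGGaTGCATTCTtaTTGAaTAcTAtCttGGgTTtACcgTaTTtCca
CLK3 exon 10, chr15:74627970-74628052, plus strand: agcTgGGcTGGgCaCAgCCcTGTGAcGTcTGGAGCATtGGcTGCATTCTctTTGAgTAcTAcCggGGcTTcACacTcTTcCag
CLK4 exon 10, chr5:178608376-178608458, minus strand: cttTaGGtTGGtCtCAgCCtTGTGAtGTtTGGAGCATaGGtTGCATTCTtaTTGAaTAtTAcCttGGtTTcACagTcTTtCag

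In CLK1 this exon had 3 inclusion reads in the mimetic set and 118 in the control set, and no skipping read in either. The mimetic set thus held 2.48% of its isoform-specific reads (exact 95% interval 0.514 to 7.07), against 17.5% over all events. Of the 4262 exons of the whole table with at least 100 isoform-specific reads, 16 (0.38%) had a lower share. CLK4 had 4 inclusion reads against 50 (7.41%, 2.06 to 17.9), and CLK3 had 1 inclusion read against 16 with 1 skipping read (5.56%, 0.141 to 27.3). All 3 values lie below the share over all events, but the intervals of CLK3 and CLK4 include it. A share below that over all events was found in 12 of the 22 member exons with a read. Among them was exon 4 of CLK1 (10.8%, 5.28 to 18.9), CLK4 (9.09%, 1.92 to 24.3) and CLK3 (7.41%, 0.91 to 24.3). These intervals of exon 4 also include the share over all events, so a lower share is not established for exon 4. Ψ was 0.71 (0.33 to 0.97) against 0.98 (0.94 to 1.0) in CLK1, 0.77 (0.50 to 0.96) against 0.96 (0.87 to 1.0) in CLK4 and 0.55 (0.11 to 0.97) against 0.80 (0.56 to 0.96) in CLK3. In none of the 3 did the mimetic set hold a skipping read. The lower Ψ there rests on few reads and does not show more skipping. These exons were picked out after their values were seen. The identity of this exon was 80.7% between CLK1 and CLK4, 74.7% between CLK3 and CLK4 and 69.9% between CLK1 and CLK3.

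**Figure D3:**
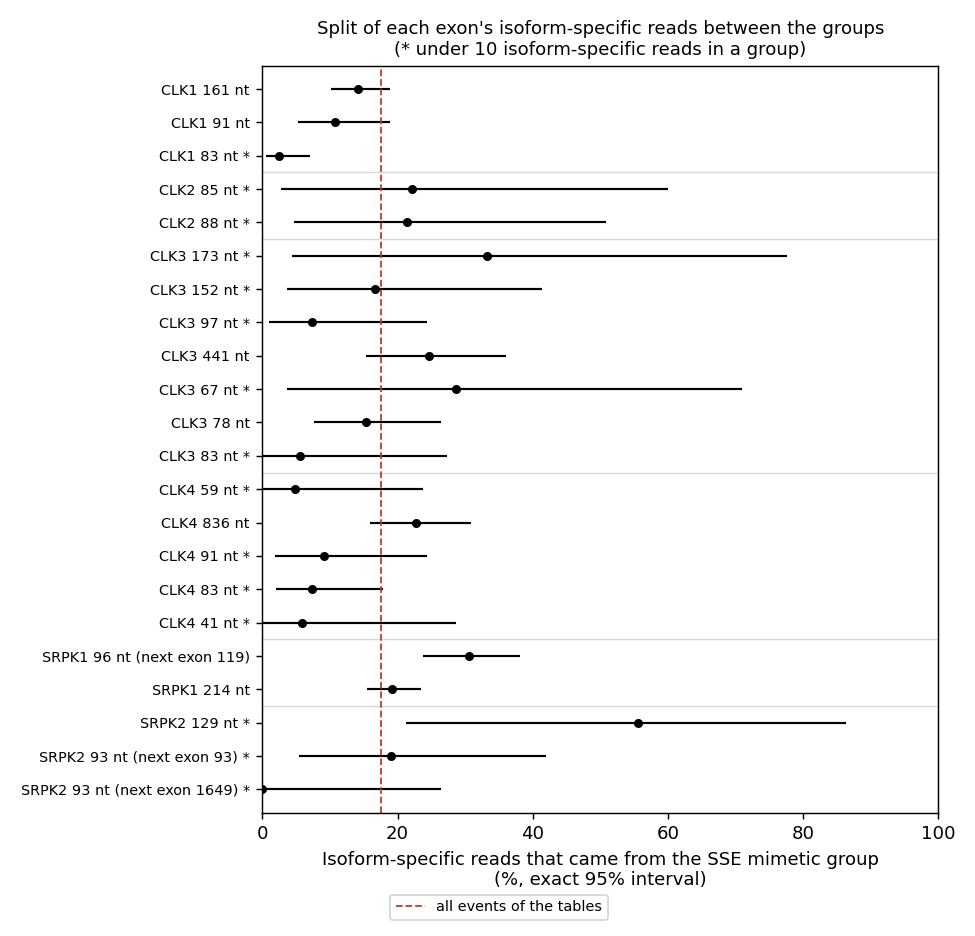
Percentage of each exon's isoform-specific reads that came from the mimetic set (x axis), with exact 95% intervals, for the 22 member exons with such a read. The dashed line is the percentage over all events (17.5%), and the CLK1 83-nt exon lies lowest among exons with reads in both groups.

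By gene, the share of isoform-specific reads that came from the mimetic set was lowest in CLK1, at 10.5% (50 reads against 427, 95% interval 7.88 to 13.6). It was 15.2% (11 to 20.2) in CLK4, 17.8% (12.9 to 23.5) in CLK3, 21.4% (10.3 to 36.8) in SRPK2, 21.7% (7.46 to 43.7) in CLK2 and 22.6% (19.2 to 26.2) in SRPK1. Exons that overlap or flank each other in CLK2, CLK3, CLK4 and SRPK2 can share reads, so the sums of these 4 genes may count a read more than once and their intervals are then too narrow. No exon pair of CLK1 or SRPK1 does so. CLK1 lay below and SRPK1 above the 17.5% over all events, and the intervals of the other 4 genes include it. The CLK1 sum holds the 83-nt exon, picked out after its value was seen. The intervals of its exon 4 (10.8%, 5.28 to 18.9) and 161-nt exon (14.1%, 10.1 to 18.9) include 17.5%. The median share of all tested exons was 20.9%, which lies inside the SRPK1 interval. Of the 7 tested exons, 0 had an interval below the 17.5% over all events and 1, the SRPK1 96-nt exon, had one above it, where 14.8% and 33.4% of all tested exons did. The minimum of 10 reads in the mimetic set keeps out exons such as the CLK1 83-nt exon. Exon length moved with this share over the whole table: the median was 16.2% for the 1700 tested exons of up to 100 nt and 31% for the 1157 of at least 400 nt. The part of exon length, read length or unspliced RNA in the CLK1 value was not tested.

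Reads in the introns beside CLK exons differed from exon to exon. Reads that match neither isoform were divided by the length of both flanking introns and set against inclusion reads per possible read position. Such reads can also be spliced to exons outside the event, so this ratio is an upper reading of intron signal. Around exon 4 of CLK1 there were 46.9 reads per 100 nt of intron and 50.6 inclusion reads per 100 positions in the control set, a ratio of 0.927, whereas around its exon 2 there were 11.7 and 95.8, a ratio of 0.122. In the mimetic set the same values were 10.9 and 6.33 (1.72) around exon 4 and 5.79 and 15.7 (0.369) around exon 2. The introns beside exon 4 thus carried several times the read density of those beside exon 2 in the control set. The median ratio of all tested exons was 0.467 in the control set and 0.751 in the mimetic set. Around exon 4 the ratio was 1.41 and 3.96 in CLK4, 5.27 and 5.66 in the 88-nt CLK2 form and 0.468 and 2.57 in CLK3, the control set given first. Around exon 10 the control ratios of CLK1 (0.259) and CLK4 (0.314) were under the median of all tested exons and that of CLK3 (1.48) was above it, and in the mimetic set the ratios were 2.13, 1.91 and 5.93.

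**Figure D4:**
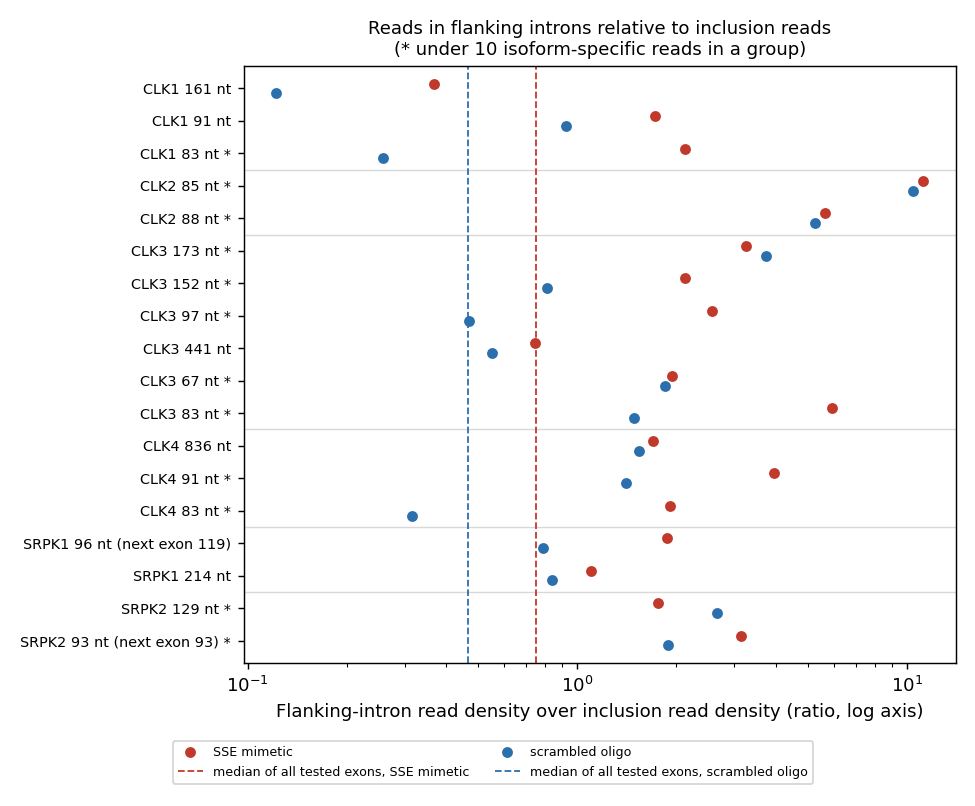
Ratio of flanking-intron read density to inclusion read density (x axis, log scale) for the 18 member exons with inclusion reads in both groups, with the median of all tested exons as dashed lines. The CLK1 161-nt exon lies lowest in both groups, and most other exons lie above the dashed lines.

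Of the 18 member exons with inclusion reads in both groups, 15 had a ratio above the median of all tested exons in the control set and 16 in the mimetic set. Of these 18, however, 12 were under the read minimum that the exons behind the median had passed, and few inclusion reads raise the ratio. Among the 6 tested member exons, 5 lay above the median in the control set and 4 in the mimetic set. The ratio was higher in the mimetic set in 16 of the 18, where it was higher in 76.4% of all tested exons with inclusion reads in both groups. It was higher in all 6 tested member exons. Many of the 18 exons share flanking introns and reads, so they are not independent. This difference in read makeup covers the whole table. Summed over all events, reads that match neither isoform were 95.3% of the counted reads for the mimetic set and 88.8% for the control set. Isoform-specific reads numbered 431105 and 2039336. Overlapping events can count the same read repeatedly, so these sums are not numbers of sequenced reads. Credible intervals of tested exons had a median width of 0.35 and 0.15. The part of this background and of depth in the values of CLK and SRPK exons was not tested beyond the subtraction given for CLK4 and SRPK1. Markers of the cell line were looked up as reads that match an isoform, the mimetic set given first. Of mesenchymal markers, CD44 had 4205 and 39589 over 15 exons, AXL 226 and 1090, and EGFR 42 and 165. Of epithelial markers, CDH1 had 38 and 81 over 6 exons, GATA3 9 and 38, and ESR1 40 and 19. Markers of other cells had 25 and 35 (PTPRC), 27 and 29 (CD3E) and 50 and 91 (ALB). VIM, CAV1, EPCAM and ERBB3 had no listed event. Only CD44 and AXL stood clearly above the markers of other cells, so this is a weak check.

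In 4 lists of genes that work with these kinases or are related to them, 6 of 79 tested exons were called, 3 higher and 3 lower, which is 7.59% against 3.99% over all tested exons. Among SR proteins, the substrates, 1 of 17 tested exons in 9 genes was called higher and 0 lower, with a median difference of 0.01 against -0.03 over all tested exons. It is a 268-nt exon of SRSF6, on chromosome 20 from 43459153 to 43459420, at 0.34 (0.22 to 0.48) in the mimetic set and 0.14 (0.11 to 0.17) in the control set. It had 31 inclusion and 6 skipping reads against 86 and 36, and an adjusted Fisher p of 1. Of 40 tested exons of SR-related and RS domain genes, 2 were called higher, 1 lower and 37 not, with a median difference of -0.015. BCLAF1, which encodes a nuclear protein rich in arginine and serine, was at 0.28 (0.16 to 0.44) against 0.05 (0.03 to 0.07) for a 227-nt exon, with 15 inclusion and 8 skipping reads against 27 and 131 and an adjusted Fisher p of 0.00145. This was the 1 exon of the 4 lists that passed both readings. LUC7L3, a U1 snRNP-associated protein gene, was at 0.44 (0.19 to 0.81) against 0.07 (0.05 to 0.09) for a 193-nt exon, with an adjusted Fisher p of 0.0758. SON, a speckle scaffold gene, was lower at 0.19 (0.16 to 0.24) against 0.30 (0.27 to 0.32) for its 5916-nt exon. It had 556 inclusion and 125 shared reads against 4403 and 637, and no skipping read in either group.

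Among related kinases of the same kinase group (such as PRPF4B and the DYRK and HIPK families), 0 of 5 tested exons in 4 genes were called, and 0 had an unadjusted Fisher p under 0.05. Among partners in import, anchoring, chaperoning and dephosphorylation, 0 of 17 were called higher and 2 lower. Both are chaperone genes: an 83-nt exon of HSPA8, on chromosome 11, was at 0.40 (0.29 to 0.52) against 0.60 (0.54 to 0.66), and a 160-nt exon of HSP90AA1, on chromosome 14, at 0.55 (0.47 to 0.63) against 1.0 (0.99 to 1.0). Neither had a skipping read in either group, so Fisher's exact test has no bearing on these differences. HSPA8 had 50 inclusion and 446 shared reads against 455 and 2663, and HSP90AA1 238 and 604 against 3433 and 3735. As in SON, the lower Ψ thus rests on inclusion reads set against shared reads, and no skipping junction was read. Processed pseudogenes are known for HSPA8 and HSP90AA1, and reads shared with them were not examined. The median differences of these lists were -0.07 and -0.04.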

How the data were processed

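Reads were aligned with STAR 2.7 to hg38, per the submitters' processing notes. The deposited files are skipped-exon summaries from MISO, per the file headers, with 1 summary per group and 1 comparison. Not given in the sources used here are the MISO version, its event set and how samples were pooled. The deposited Ψ is a fraction with its 95% credible interval, the deposited Bayes factor is a ratio capped at 1e12, and the deposited difference is a score from the first Ψ minus the second. A check found the SSE mimetic summary's Ψ as the first value in all 45977 events.

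Events were matched to GENCODE release 29, and events sharing a cassette exon were reduced to the one with most isoform-specific reads, leaving 39120 exons. Tests used scipy 1.17.1 and statsmodels 0.14.6. Fisher's exact test compares the read sets, not the conditions. The 2-isoform model used a uniform prior on 400 values of Ψ and a read length of 76 nt, the closest of those tried to the deposited Ψ. It was tested on simulated data, drawn from the same model without intron reads, so that test does not cover a background of intron reads. Subtraction removed intron density times the read positions wholly inside the exon.

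Named were all tested member exons, exon 4 of the CLK genes, and up to 3 called exons per direction from 4 lists of related genes. The members and lists were chosen with earlier results of these data known.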

Additional observations from a re-analysis of the deposited data

How the results depend on the processing

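No member exon was called under any of the 11 alternatives tried, which were other minimums of reads, Bayes factor or difference, Fisher's exact test, the inclusion share, every event kept, and the 2-isoform model with and without subtraction of intron reads. The largest deposited Bayes factor of a member was 1.36, so settings that kept a minimum on it could give no call. Fisher's exact test and the 2 forms of the model replaced it. Fisher's exact test could not pass where a read class was empty in both groups. Only the inclusion share and the 2 forms of the model recompute a difference. Of these 21 differences of tested member exons 14 kept their direction, 4 were 0 because a read class was empty, and 3 changed sign: CLK1 exon 4 was at 0.0361 by inclusion share, and after subtraction the CLK3 441-nt exon was at 0.0657 and the SRPK1 214-nt exon at -0.0236. Over all tested exons, 255 were called higher and 73 lower. With at least 5 reads 115 were lower, and with at least 20 reads 139 were higher and 45 lower. A Bayes factor of at least 100 gave 126 and 38. Fisher's exact test gave 67 and 0, with 453 exons that had p under 0.05 before adjustment. By inclusion share 6 were lower, and after subtraction 246. Fewer or more exons entered with the read minimums, and otherwise the cause was not tested. No paired analysis was possible because each group was deposited as 1 pooled read set, and for the same reason no sample could be left out. Of the 24 member exons, 17 were under the minimum of 10 reads, 11 in the mimetic set alone and 6 in both sets. The cause of these low counts was not tested.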
